A study of Homo sapiens with 41 samples.

Results

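Spherical and rod-shaped gold nanoparticles were compared directly in the apical layer of an alveolar culture model, from 3 libraries titled spheres 1000 and 3 titled rods 1000, chosen by their titles out of 41 libraries in all. The apical layer was kept at an air-liquid interface and paired A549, a line from a human lung adenocarcinoma used as a stand-in for alveolar epithelium, with differentiated THP1, a monocytic leukaemia line. Cultures received Au spherical NP or Au rods NP for 24 h, and 3 apical control libraries came from untreated cultures. The number 1000, like 500 in other titles, has no unit in the labels, and particle dimensions and coating are not given there either. Beneath the apical layer the cells labelled EA.hy296 grew submerged, and their libraries, titled basolateral, are used below only to ask whether a difference between shapes was also seen there. Replicates 1, 2 and 3 are biological replicates in the study's design text. With group as the only term, p-values measure the spread between them. Where the replicate number enters the fit as well, p-values measure how much the difference varied between the pairs.

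Gold particles reach cells mainly through endocytosis, and shape is one of the properties by which their uptake can differ. Epithelial and myeloid cells can answer foreign material with NF-kB dependent cytokines and chemokines and with interferon-stimulated antiviral genes. Total RNA libraries also hold transcripts that need not leave the nucleus or the mitochondrion. Among them are the host genes of small nucleolar RNAs (snoRNAs), whose introns are processed into snoRNAs while the spliced transcript of several is bound by ribosomes and degraded through nonsense-mediated decay.

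Totals ran from 5934685 to 8782969 counts in spheres and from 8322698 to 10005469 in rods, with 18344 to 18700 genes detected, and 3 counts came to 0.300 to 0.506 CPM, the count scaled to a common library total. Among counts of 1 to 20 the share of even numbers was 68.4 to 71.2% in spheres and 71.7 to 76.7% in rods, and its part in the results was not tested. KIT, the stem cell factor receptor of mast cells, measured 861, 444 and 109 CPM in spheres replicates 1, 2 and 3 and 973, 448 and 110 CPM in rods, so the number separated the libraries and the shape did not. On the first principal component, with 40.3% of the variance, replicates 1 stood at -34.8 and -31.1, replicates 2 at -8.59 and -7.33 and replicates 3 at 40.1 and 41.7. On the second component (24.5%) spheres stood above rods in each pair, at 41.7 against -10.3, -17.5 against -32.3 and 15.4 against 3.07. The numbers were therefore also taken as pairs. Listed markers of alveolar epithelium and of macrophages were both counted in every library, while the surfactant genes SFTPA1, SFTPB and SFTPC and the lung factor NKX2-1 had no read in any of the 6 libraries.

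With group as the only term, no gene passed. Of 14082 genes tested, edgeR's quasi-likelihood test with Benjamini-Hochberg adjustment called 0 (0%), 357 (2.54%) had an unadjusted p under 0.05, limma-voom called 0 and DESeq2 21 (0.149%), of which 10 were mitochondrially encoded genes. Once the replicate number entered the fit as a block, 42 genes (0.298%) passed in edgeR: 35 were higher in spheres (0.249%) and 7 in rods (0.0497%). Each of the 42 differed the same way in all 3 pairs, and in 23 of them the groups did not overlap. The same pairs selected these genes, so neither count is separate support. Spheres were higher in all 3 pairs in 13.7% of all genes tested and rods in 19.5%. Every spheres library lay above every rods library in 3.68% of all genes tested, and the reverse held in 4.67%. These shares were taken on CPM without the TMM scaling that the fits used. DESeq2 and limma-voom with the block called 51 and 59 genes, which included 33 and 41 of these 42. Adding the control libraries to the fit with the block left 8 calls among 14567 genes (0.0549%), all among the 42 and all higher in spheres (DDX39B, EIF3C, GAS5, HSP90AB2P, MIR663A, MTRNR2L1, TMA7 and TMSB10). The number of calls depended on the pairs kept: without replicate 2 the block gave 15 calls, against 151 without replicate 1 and 177 without replicate 3, and of the 37 of these genes described below 6 stayed called without replicate 2. Their blocked log2 fold changes without replicate 2 were 0.778 to 1.29 times those with all pairs (median 0.946), so the sizes moved less than the calls. In simulated counts for this comparison (13813 genes) the block recovered 35 of 67 genes changed 1.5-fold, 48 of 67 changed 2-fold and 58 of 66 changed 4-fold, with 21 false calls among 162, while group only recovered 2, 16 and 43 with 0 false calls among 61. The false share under the block was above the 0.05 at which genes were called. The simulated levels were built with the replicate number, so the gain from the block there cannot show that the real libraries are paired.

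**Figure D1:**
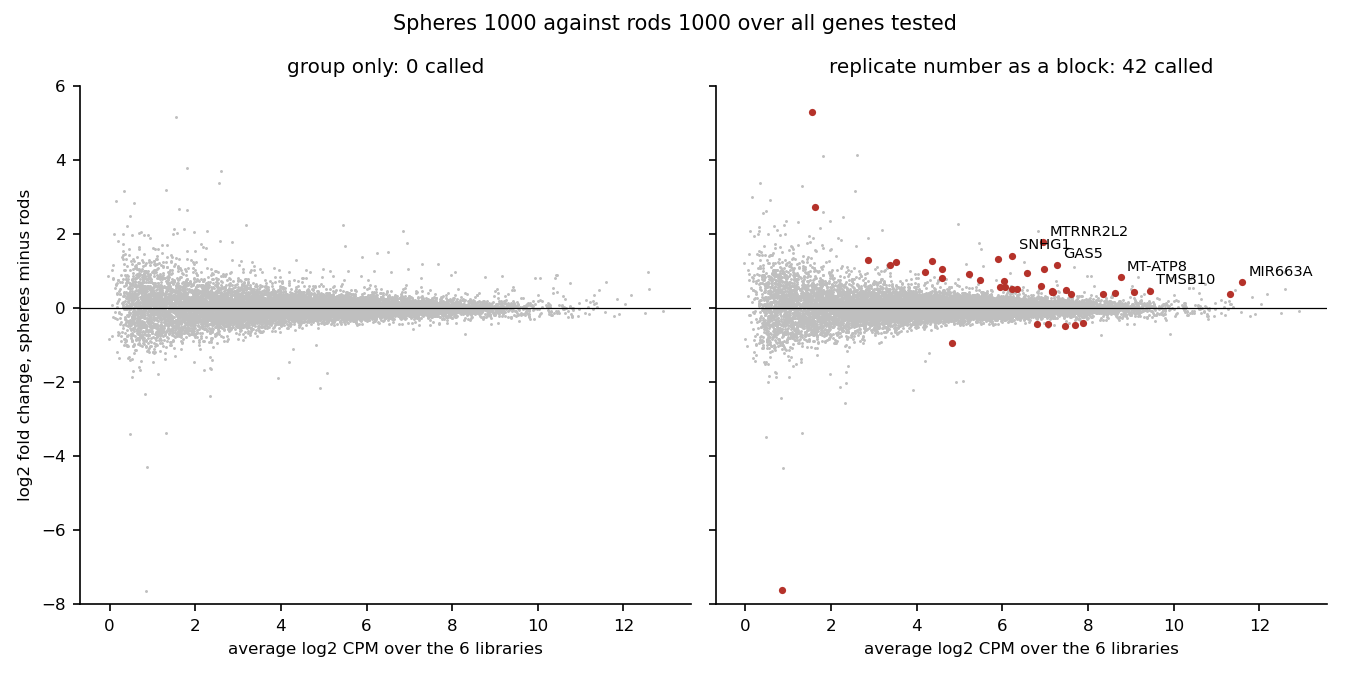
Log2 fold change of spheres 1000 over rods 1000 (vertical) against average log2 CPM (horizontal) for the 14082 genes tested, with group only on the left and the replicate number as a block on the right; each point is a gene and red marks an adjusted p under 0.05 in edgeR. No point is red on the left, and 42 are on the right, 35 of them above 0.

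The smallest adjusted p belonged to a snoRNA host gene. GAS5, whose introns hold many snoRNAs and whose transcript accumulates in growth arrest (ENSG00000234741, chromosome 1, 173863900 to 173868882, GRCh38), measured 283, 214 and 146 CPM in spheres replicates 1, 2 and 3, 123, 90.1 and 73.0 CPM in rods and 250, 136 and 154 CPM in control. Every spheres library lay above every rods library, and the rods libraries also lay below the controls. The log2 fold change of spheres over rods was 1.19 ± 0.28 with group only (estimate ± standard error) and 1.18 ± 0.08 with the block (edgeR adjusted p = 1.02e-06). Under the block it remained called with any pair left out and with the controls added.

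SNHG1, the host of a row of snoRNAs on chromosome 11 (62851988 to 62855914), measured 162, 98.8 and 68.3 CPM in spheres, 50.3, 38.4 and 31.8 CPM in rods and 129, 53.2 and 74.9 CPM in control. Again the groups did not overlap and the order of the replicates was the same in both, at a log2 fold change of 1.42 ± 0.11 with the block (adjusted p = 6.05e-06 in edgeR). SNHG8, which hosts SNORA24, measured 35.7, 19.4 and 16.9 CPM in spheres against 17.8, 12.5 and 7.20 CPM in rods. Here the groups overlapped, although each pair differed the same way, and the difference was 0.97 ± 0.17 with the block (adjusted p = 0.0202 in edgeR).

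Of 18 listed snoRNA host genes 17 were tested, and 12 were higher in spheres (70.6%), against 50.4% of all genes. With the block 3 of the 17 were called and 6 had an unadjusted p under 0.05, all higher in spheres, where 5.55% of all genes tested had such a p and were higher in spheres and 4.18% were higher in rods. The median log2 fold change was 0.12, next to 0.0015 over all genes, so the list did not move as a whole: 5 of its members were lower in spheres. Left out one library at a time, that median ran from 0.02 to 0.23.

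**Figure D2:**
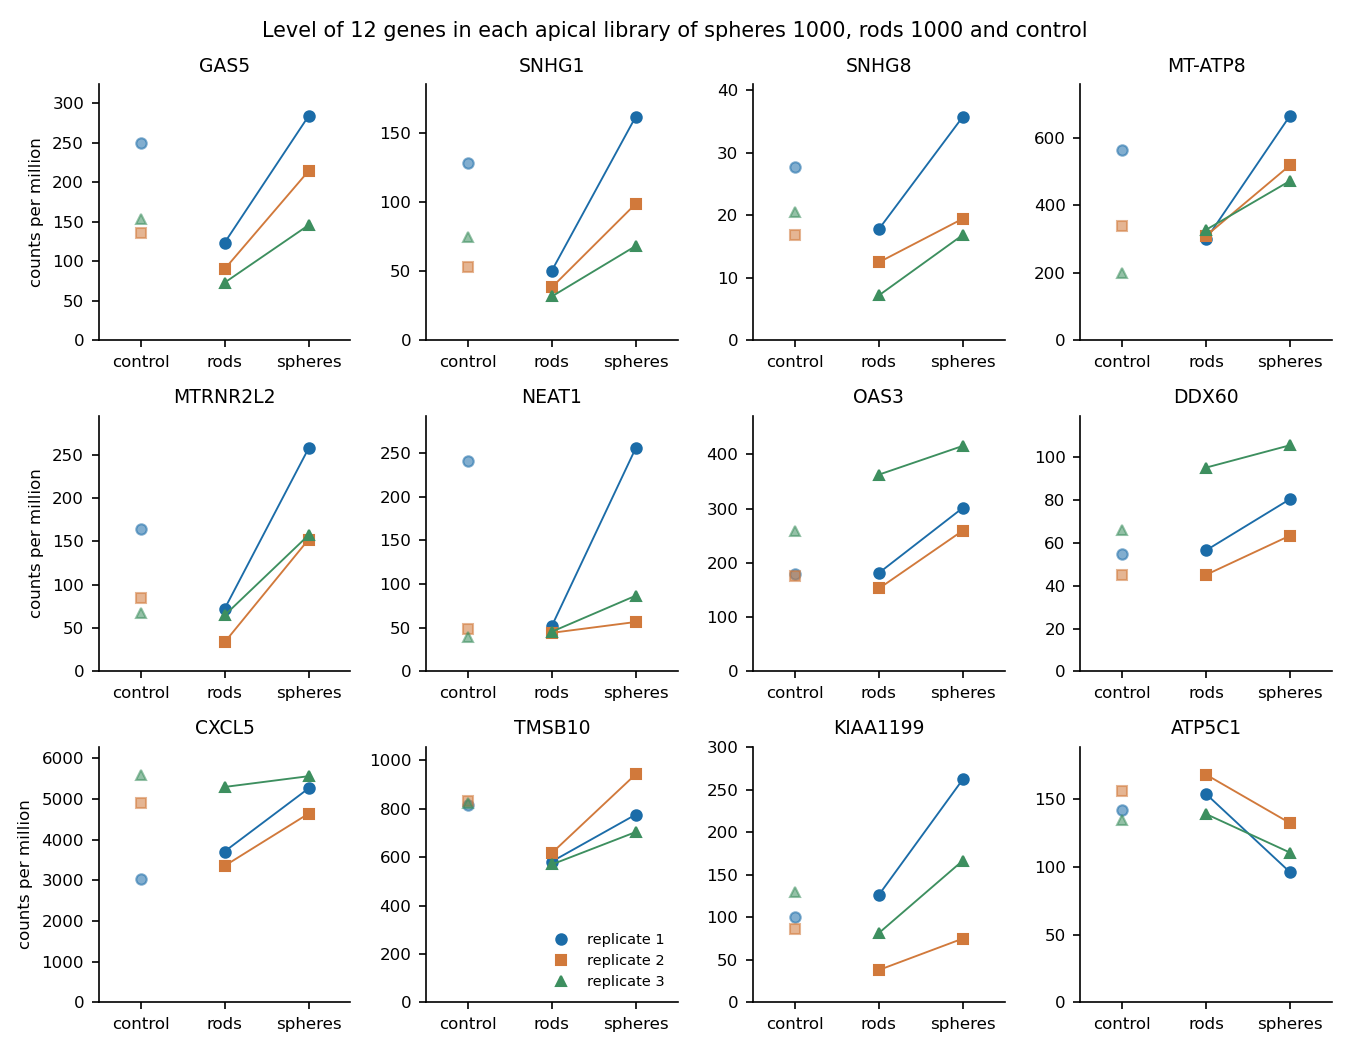
Level in CPM (vertical) of 12 genes in each control, rods 1000 and spheres 1000 library; color and marker give the replicate number and a line joins the rods and spheres libraries of the same number. GAS5 lies at 146 to 283 CPM in spheres and 73.0 to 123 CPM in rods, and ATP5C1 is the panel in which rods lie above spheres.

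Transcripts of the mitochondrial genome, which encode subunits of the respiratory chain and of ATP synthase, stood higher in spheres. All 13 protein genes were higher, with a median log2 fold change of 0.85 (range 0.51 to 1.19), and in 12 of them every spheres library lay above every rods library, which held for 3.68% of all genes tested. Their summed level was 26150, 17700 and 18170 CPM in spheres replicates 1, 2 and 3, 11570, 11870 and 15790 CPM in rods and 18730, 12180 and 7767 CPM in control. The controls ran from below every rods library to above 2 of the 3 spheres libraries, and spheres replicate 1 was the highest of all. The means, 20670 ± 4746 against 13080 ± 2353 CPM (SD, n = 3), gave an exact permutation p of 0.1, the smallest that 3 against 3 can give (two-sided). The pairs differed in size, with medians of 1.29, 0.72 and 0.35 on the log2 scale in pairs 1, 2 and 3, and the median fell from 0.85 to 0.61 without spheres replicate 1.

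MT-ATP8, a small subunit of ATP synthase whose reading frame overlaps that of MT-ATP6, measured 665, 519 and 472 CPM in spheres against 299, 310 and 328 CPM in rods. The groups lay well apart, and the log2 fold change was 0.85 ± 0.14 with group only (unadjusted p = 0.000248, adjusted p = 0.00025 in DESeq2) and 0.83 ± 0.11 under the block (edgeR adjusted p = 0.0255). MT-ND3, a subunit of complex I, measured 161, 114 and 98.6 CPM against 64.4, 60.4 and 68.3 CPM, without overlap (0.95 ± 0.14 with the block, adjusted p = 0.0429). MT-CO2 of cytochrome oxidase (0.82 ± 0.19), MT-ND4L (0.88 ± 0.25) and MT-ND6, which is transcribed from the other strand (1.12 ± 0.32), did not pass with the block in edgeR, at adjusted p = 0.365, 0.475 and 0.520.

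MTRNR2L1, MTRNR2L2 and MTRNR2L9 are nuclear loci derived from the mitochondrial 16S ribosomal RNA gene. MTRNR2L2, listed by GENCODE as a processed pseudogene, measured 257, 152 and 157 CPM in spheres and 72.1, 33.6 and 64.7 CPM in rods, with no overlap and a log2 fold change of 1.78 ± 0.18 with the block (adjusted p = 0.0498 in edgeR). MTRNR2L1 (1.33 ± 0.15) and MTRNR2L9 (1.30 ± 0.26) were called in the same direction. MTRNR2L8 (2.08 ± 0.30) and MTRNR2L12 (0.98 ± 0.21), of the same family, were also higher with the block. Neither passed there in edgeR (adjusted p = 0.281 and 0.345), while DESeq2 with group only called both. Of the 30-base transcript words, 10.3% of those of MTRNR2L2 and 6.82% of those of MTRNR2L1 also stood in MT-RNR2. None of those of MTRNR2L9 did. Whether reads of the mitochondrial gene were counted at any of these MTRNR2L loci was not tested, so the values are uncertain as to their source.

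Long RNAs kept in the nucleus were also higher in spheres, without a call. Of 15 listed nuclear and non-polyadenylated RNAs, 12 had no read in the 6 libraries and 3 were tested, MALAT1, NEAT1 and MEG3, all higher in spheres in each pair (median log2 fold change 1.16). NEAT1, which builds paraspeckles, measured 255, 56.6 and 86.6 CPM in spheres against 51.8, 44.1 and 45.4 CPM in rods and 241, 48.9 and 39.2 CPM in control. Replicate 1 set most of that difference: it was 1.52 ± 0.58 with group only, 0.63 without spheres replicate 1 and 1.25 ± 0.56 with the block (adjusted p = 0.654 in edgeR). MALAT1, a speckle RNA, gave 0.86 ± 0.28 (adjusted p = 0.536) and MEG3, an imprinted RNA, 1.06 ± 0.27 (adjusted p = 0.157). The part of the mitochondrial and nuclear RNA levels in the differences of other genes was not tested.

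**Figure D3:**
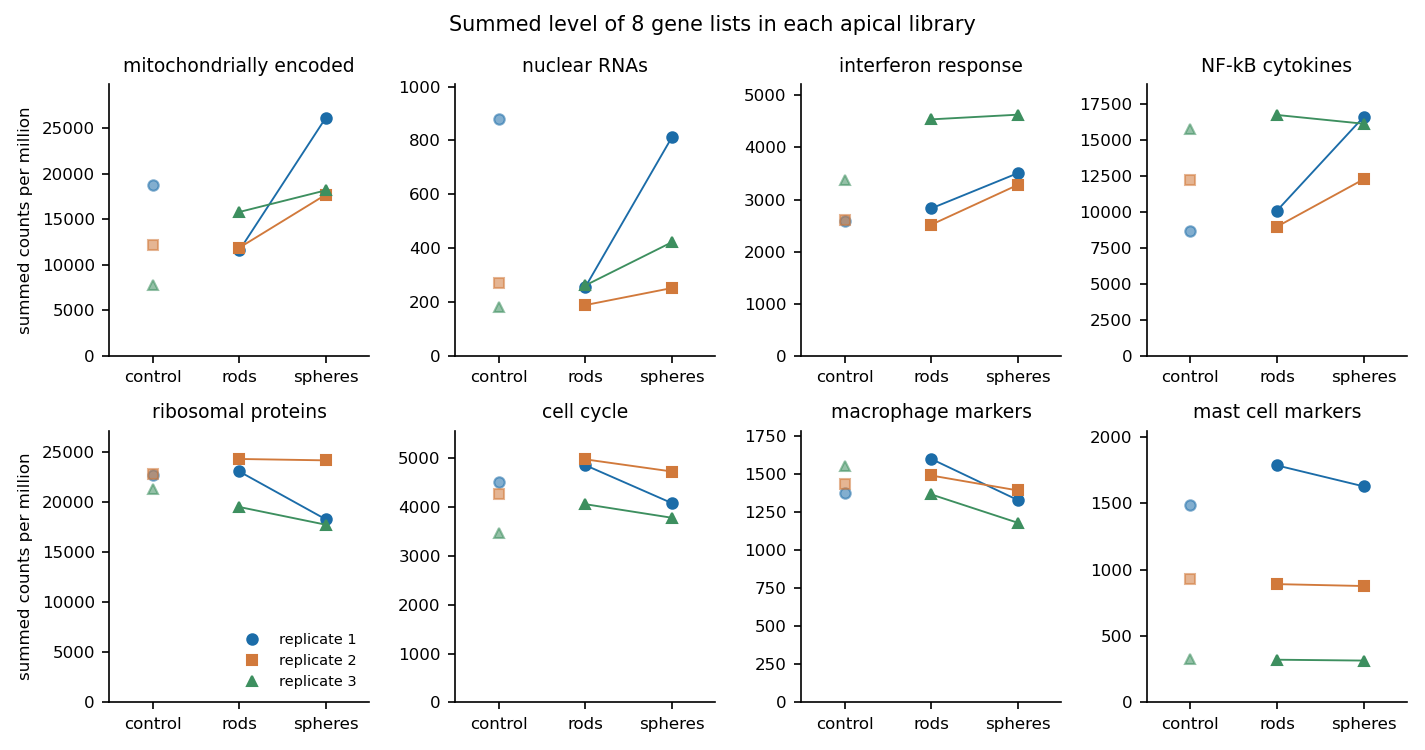
Summed CPM of 8 gene lists (vertical) in each control, rods 1000 and spheres 1000 library, marked by replicate number, with a line joining rods and spheres of the same number. The mitochondrial sum lies at 17700 to 26150 CPM in spheres and 11570 to 15790 CPM in rods, while the mast cell sum follows the replicate number.

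Genes of the type I interferon response stood slightly higher in spheres, without a call. Of 43 members tested out of 44 listed, 40 (93.0%) were higher, against 50.4% of all genes tested, with a median log2 fold change of 0.28. With the block 21 (48.8%) had an unadjusted p under 0.05, all higher in spheres, against 5.55% of all genes tested, and 0 were called by edgeR. DESeq2 with the block called OAS3, and DESeq2 with group only called none. In no member did the groups separate, and the third replicate had the highest sum with both shapes. The summed level was 3506, 3281 and 4628 CPM in spheres and 2829, 2516 and 4538 CPM in rods, next to 2581, 2609 and 3371 CPM in control. By pair the medians were 0.27, 0.39 and 0.02, so pair 3 showed almost no difference, with 24 of 43 members higher. Left out one library at a time, the median ran from 0.05 without rods replicate 2 to 0.64 without rods replicate 3.

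OAS3, which makes the oligoadenylates that switch on RNase L (chromosome 12, 112938352 to 112973249), measured 301, 259 and 415 CPM in spheres, 181, 153 and 362 CPM in rods and 179, 176 and 258 CPM in control. Each pair was higher in spheres, most in pairs 1 and 2, with a difference of 0.58 ± 0.11 with the block (adjusted p = 0.116 in edgeR, 0.159 in limma-voom and 0.000905 in DESeq2). DDX60, a helicase-like protein that aids RNA sensing (chromosome 4, 168216293 to 168318807), measured 80.5, 63.5 and 106 CPM against 56.6, 45.2 and 95.3 CPM (0.40 ± 0.10, adjusted p = 0.131). OAS1, the smaller synthetase beside OAS3, gave 0.46 ± 0.10 (adjusted p = 0.0940). Without rods replicate 3 and with group only, the log2 fold change was 0.99 for OAS3, 0.74 for DDX60 and 0.76 for OAS1.

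Interferon-stimulated genes carry in their promoters a response element read by STAT and IRF factors, with a core of spaced GAAA repeats. GAAANNGAAA was searched on both strands in RefSeq promoter windows of 300 bases (250 before to 50 after the start, GRCh38.p14). It stood in 23 of the 35 interferon genes found in that table (65.7%), in 2 of 25 NF-kB genes (8%) and in 4.38% of 27305 genes in all. A match is a run of letters and no evidence of binding, and the window of OAS1 held none. The parts of the windows of OAS3 (chr12:112938306-112938425, plus strand) and DDX60 (chr4:168318771-168318865, minus strand), the members named above with a match, are shown with the matches in capitals.
OAS3: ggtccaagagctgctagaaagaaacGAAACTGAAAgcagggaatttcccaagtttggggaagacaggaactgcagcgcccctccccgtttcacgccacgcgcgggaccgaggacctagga
DDX60: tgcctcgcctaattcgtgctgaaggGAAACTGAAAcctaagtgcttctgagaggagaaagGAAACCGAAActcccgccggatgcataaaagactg
OAS3 held 1 match and DDX60 2.

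Cytokines and chemokines under NF-kB control also stood higher in spheres in pairs 1 and 2. Of 30 members tested 27 (90%) were higher in spheres over the groups (median log2 fold change 0.29), against 50.4% of all genes tested. With the block 7 (23.3%) had an unadjusted p under 0.05, all higher in spheres, against 5.55% of all genes tested. With the block edgeR and limma-voom called none of them and DESeq2 called CXCL5. The medians were 0.69 in pair 1, 0.42 in pair 2 and -0.17 in pair 3, where 9 of 30 were higher in spheres, so the third pair went the other way. The summed level, 16630, 12290 and 16150 CPM in spheres against 10110, 8995 and 16760 CPM in rods, overlapped between the groups. The median over both groups was 0.08 without rods replicate 2 and 0.70 without rods replicate 3.

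CXCL5, a neutrophil attractant, measured 5262, 4642 and 5563 CPM in spheres, 3711, 3358 and 5298 CPM in rods and 3034, 4913 and 5593 CPM in control. The controls spread as widely as both exposed groups together, and the difference of 0.37 ± 0.09 with the block had an adjusted p of 0.114 in edgeR, 0.241 in limma-voom and 0.0326 in DESeq2. CCL5, a T cell and monocyte attractant that interferon also induces, gave 0.55 ± 0.14 (adjusted p = 0.161). IL11, a cytokine of the IL-6 type, measured 7.41, 3.01 and 10.1 CPM in spheres and 2.40, 0.203 and 4.10 CPM in rods, where replicate 2 lay under the 0.304 CPM that 3 counts came to in that library (adjusted p = 0.0713 with the block).

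**Figure D4:**
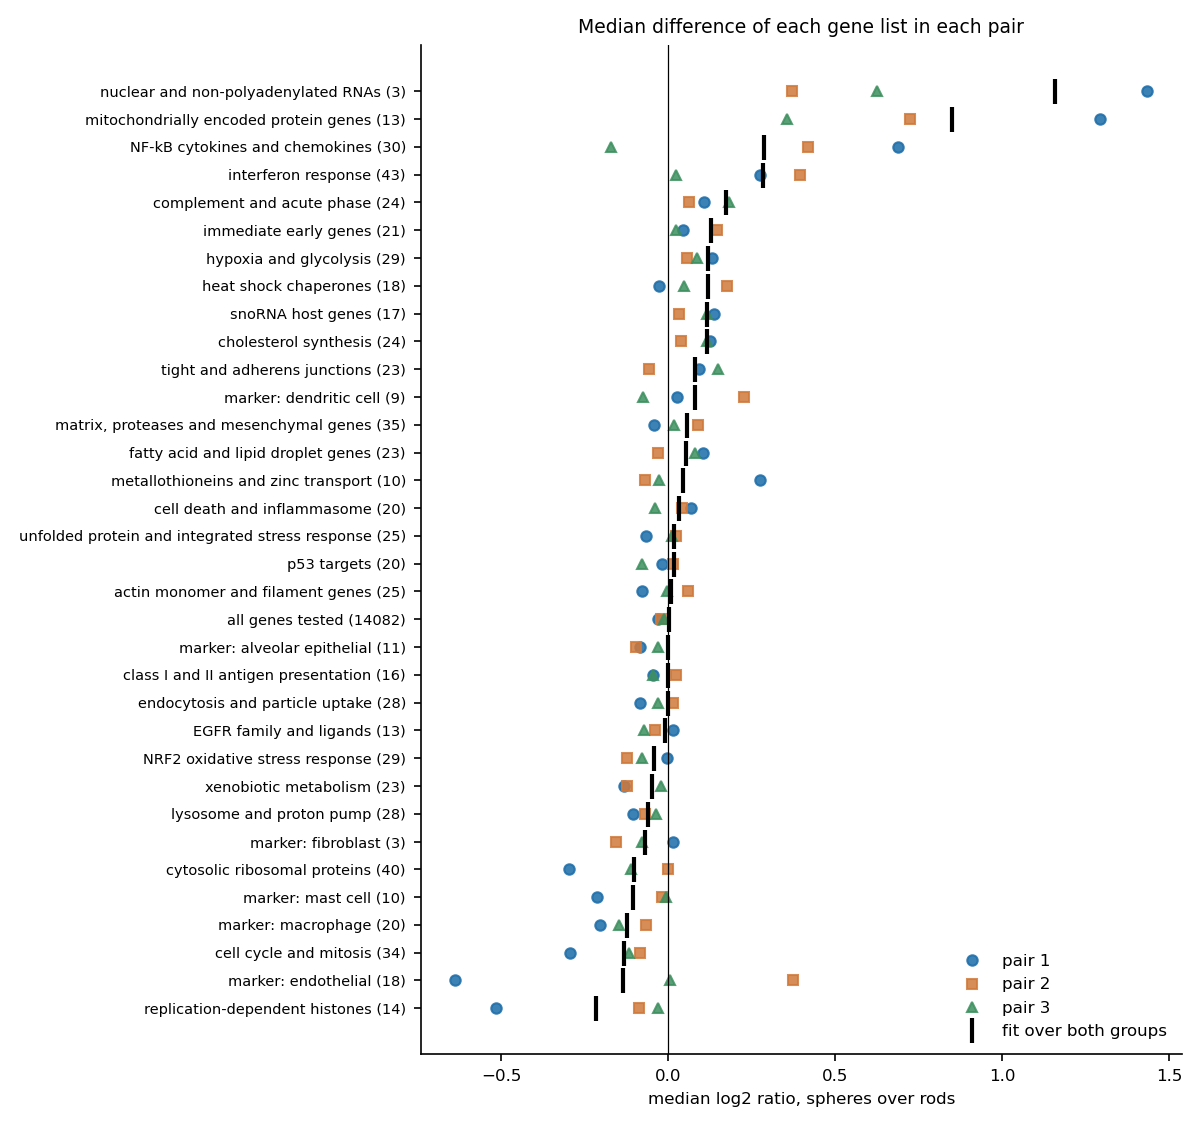
Median log2 ratio of spheres over rods (horizontal) for each gene list, with the number of genes tested in brackets; markers give the median within pairs 1, 2 and 3 on log2 of CPM plus 2, and black bars the median of the fit over both groups. All 3 pairs lie above 0 for mitochondrial genes (0.35 to 1.29), and pair 3 lies at -0.17 for NF-kB genes.

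Among genes of the cytoskeleton and of translation, the differences went both ways. TMSB10, a thymosin that binds actin monomers (chromosome 2, 84905625 to 84906675), measured 776, 943 and 704 CPM in spheres, 582, 617 and 570 CPM in rods and 817, 831 and 824 CPM in control. The rods libraries lay below all 6 others, and spheres differed from rods by 0.47 ± 0.08 with the block (adjusted p = 0.0147 in edgeR). TMA7, whose yeast counterpart associates with ribosomes, measured 91.7, 95.1 and 57.2 CPM against 57.6, 50.2 and 39.4 CPM, which overlapped at a single library (0.74 ± 0.10, adjusted p = 0.00335). TPM1, a tropomyosin, gave 0.38 ± 0.07 (adjusted p = 0.0429). Of 25 actin genes tested, 13 were higher in spheres (median 0.01), with TMSB10 and TPM1 the called members.

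Ribosomal protein genes as a list pointed to rods. Of 40 tested, 28 were lower in spheres and 12 higher (median log2 fold change -0.10). With the block 13 (32.5%) had an unadjusted p under 0.05 and were lower, against 4.18% of all genes tested. At such a p 2 (5%) were higher, against 5.55%, and edgeR called 1 member. That member, RPS14 of the small subunit, was higher, at 167, 193 and 135 CPM in spheres against 138, 139 and 98.4 CPM in rods (0.43 ± 0.08, adjusted p = 0.0255 in edgeR). RPS27A, a ubiquitin fusion, gave 0.38 ± 0.08 (adjusted p = 0.0767 in edgeR, 0.0380 in DESeq2 and 0.0397 in limma-voom), and RPS7 -0.23 ± 0.07 (adjusted p = 0.251). Ribosomal protein genes have many processed pseudogenes, so their counts are uncertain, and the list median by pair was -0.30, -0.0009 and -0.11. It ran from -0.27 without spheres replicate 2 to -0.03 without spheres replicate 1.

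Several calls were genes with near-identical copies, whose reads cannot be placed with certainty. EIF3C, a subunit of a translation initiation factor, was higher in spheres (0.50 ± 0.08, adjusted p = 0.0148 in edgeR) and its copy EIF3CL lower (-0.49 ± 0.09, adjusted p = 0.0255), and 98.5% of the 30-base words of EIF3CL also stood in EIF3C. Their sum, 367, 390 and 305 CPM in spheres and 413, 372 and 289 CPM in rods, overlapped. CDK11A, a kinase tied to splicing that shares 40.9% of its words with CDK11B, was higher (0.80 ± 0.14, adjusted p = 0.0202), as were the pseudogenes HSP90AB2P (1.26 ± 0.17) and EEF1A1P6 (1.17 ± 0.22), which share 13.8% and 84.1% with HSP90AB1 and EEF1A1. The locus named MIR663A, which GENCODE lists as the long host transcript MIR663AHG on chromosome 20, measured 4433, 3352 and 3583 CPM against 2827, 1799 and 2534 CPM, without overlap (0.71 ± 0.08, adjusted p = 0.000683); the mature miRNA is not measured by these libraries. Calls with clone names or copy numbers in their symbols were counted and are not described.

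Of the other called genes, 3 have roles in RNA processing, a grouping made after their values were seen. DDX39B, a helicase of splicing and mRNA export that lies across a readthrough gene and hosts snoRNAs, measured 194, 151 and 148 CPM in spheres and 138, 109 and 115 CPM in rods (0.47 ± 0.08, adjusted p = 0.0148 in edgeR), without overlap. ARL6IP4, a splicing regulator of the nucleus, measured 74.5, 71.0 and 71.6 CPM against 54.7, 48.9 and 44.8 CPM, also without overlap (0.58 ± 0.10, adjusted p = 0.0175). PRPF38B, of the spliceosome, gave 0.52 ± 0.10 (adjusted p = 0.0453).

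The remaining called genes that were higher in spheres than in rods have varied roles. Such a difference does not say which shape departed from control. CHGB averaged 161 CPM in spheres, 123 CPM in rods and 172 CPM in control, while SERPINB3 averaged 47.6, 26.6 and 27.1 CPM. KIAA1199 (CEMIP), which binds and breaks down hyaluronan, measured 263, 75.1 and 167 CPM in spheres, 127, 38.2 and 81.7 CPM in rods and 99.9, 86.7 and 130 CPM in control. The groups overlapped widely, while spheres lay above rods in each pair: the difference was 1.06 ± 0.61 with group only and 1.05 ± 0.08 with the block (adjusted p = 2.44e-06 in edgeR). SLC1A2, a glutamate transporter, measured 69.3, 41.6 and 54.0 CPM against 41.3, 24.3 and 34.2 CPM, separated by a narrow margin (0.75 ± 0.11, adjusted p = 0.00593). PI3, which encodes the elastase inhibitor elafin, measured 35.1, 25.8 and 34.2 CPM against 12.9, 11.1 and 23.7 CPM (1.06 ± 0.17, adjusted p = 0.0202). For PI3, too, no rods library reached the lowest spheres library.

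Differences with the block were also found for FSTL1, a secreted glycoprotein (0.60 ± 0.09), SERPINB3, a protease inhibitor of squamous epithelium (0.92 ± 0.16), SLC39A8, a zinc importer (0.43 ± 0.08), and FTH1, the ferritin heavy chain (0.37 ± 0.07). C8orf4 (TCIM), a regulator of Wnt signalling (0.39 ± 0.07), ROBO1, the receptor of Slit proteins (0.37 ± 0.07), CHGB, a granin (0.45 ± 0.09), SCAMP3, of the secretory route (0.50 ± 0.10), SLC6A14, an amino acid transporter (0.58 ± 0.11), and CCR7, a chemokine receptor of maturing dendritic cells (1.26 ± 0.24), were also called. In all of these except C8orf4 the groups overlapped. CCR7 measured 11.6, 10.03 and 23.1 CPM in spheres against 3.48, 3.25 and 14.9 CPM in rods and 2.67, 5.97 and 30.1 CPM in control, so its level followed the replicate number as much as the shape. With group only its log2 fold change was 1.07 ± 0.67, and 2.18 without rods replicate 3.

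Of the genes called with the block, fewer were higher in rods (7 against 35). In the TMM-scaled fit with group only, 50.4% of all genes tested were higher in spheres. The larger share of genes higher in rods in all 3 pairs (19.5% against 13.7%) was taken on CPM without that scaling, so it is not comparable with the calls. PMP22, a membrane protein of myelin and epithelia, measured 114, 113 and 58.1 CPM in spheres and 165, 149 and 77.0 CPM in rods, with replicate 3 low in both (-0.42 ± 0.08, adjusted p = 0.0402 with the block in edgeR). ATP5C1, the nuclear-encoded gamma subunit of mitochondrial ATP synthase, measured 96.2, 133 and 111 CPM against 154, 168 and 139 CPM (-0.42 ± 0.09, adjusted p = 0.0474), so that it was lower where the mitochondrially encoded subunits were higher. HIST1H2AI, a core histone gene, was also lower in spheres (-0.45 ± 0.08, adjusted p = 0.0255). With group only, the genes lower in spheres with the smallest p included RP2, a GTPase activator of the retina and other tissues, at 47.0, 48.9 and 45.7 CPM against 66.4, 65.3 and 63.5 CPM (-0.44 ± 0.11, unadjusted p = 0.00286). RP2 was not called with the block either (adjusted p = 0.0940). MDP1, a phosphatase that lies in a readthrough gene with NEDD8, measured 1.85, 3.76 and 1.25 CPM against 7.33, 7.31 and 7.40 CPM and 5.91 to 6.87 CPM in control (-1.73 ± 0.36, adjusted p = 0.0527), and FRY, a scaffold of NDR kinases, gave -0.54 ± 0.15 (adjusted p = 0.196).

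Cell cycle genes stood lower in spheres by a small amount. Of 34 tested, 30 were lower (median log2 fold change -0.13), and 19 (55.9%) were lower in all 3 pairs, against 19.5% of all genes tested. With the block 9 (26.5%) had an unadjusted p under 0.05, all lower in spheres, against 4.18% of all genes tested, while 0 were called with the block by edgeR, DESeq2 or limma-voom. The median was -0.25 without spheres replicate 2 and -0.04 without spheres replicate 3. RRM2, a subunit of ribonucleotide reductase, measured 139, 196 and 134 CPM in spheres, 192, 226 and 179 CPM in rods and 164, 181 and 119 CPM in control (-0.34 ± 0.08, adjusted p = 0.0940). CDK1, the mitotic kinase, gave -0.32 ± 0.08 (adjusted p = 0.157) and TYMS, which makes thymidylate, -0.28 ± 0.08 (adjusted p = 0.204). Replication-dependent histones, whose messages peak with DNA synthesis and end without a poly(A) tail, were lower in 12 of 14 tested (median -0.22), of which HIST1H2BC gave -0.29 ± 0.09 (adjusted p = 0.287). The histone median was 0.0028 without rods replicate 1.

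Macrophage markers were lower in spheres in 17 of 20 tested (median -0.12). With the block 5 (25%) had an unadjusted p under 0.05, all lower, against 4.18% of all genes tested, and 0 were called by edgeR, DESeq2 or limma-voom. The median was -0.21 without rods replicate 2 and -0.02 without rods replicate 3. Their sum was 1327, 1390 and 1178 CPM in spheres, 1597, 1488 and 1364 CPM in rods and 1373, 1433 and 1550 CPM in control, lower in spheres in each pair (exact permutation p = 0.2 unpaired, two-sided). LYZ, the secreted lysozyme, measured 358, 485 and 275 CPM against 500, 547 and 359 CPM (-0.32 ± 0.08, adjusted p = 0.102 in edgeR), and FCGR2A, an IgG receptor, gave -0.28 ± 0.11 (adjusted p = 0.421). In mixed bulk RNA, fewer THP1 cells and less of these messages per cell cannot be told apart. The part of the THP1 share in the other differences was not tested.

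The other marker lists showed no call in edgeR apart from CCR7, which stood among the dendritic cell markers (5 of 9 tested higher, median 0.08, summed at 148 to 228 CPM in spheres and 131 to 230 CPM in rods, with CLEC9A and CD207 at 0). Alveolar epithelial markers were higher in 5 of 11 (median -0.0007, 3148 to 5103 CPM in spheres and 3939 to 5116 CPM in rods), and mast cell markers in 2 of 10 (median -0.11, 316 to 1629 CPM and 322 to 1787 CPM, with FCER1A at 0). The mast cell median turned from -0.82 without spheres replicate 1 to 0.80 without rods replicate 1, so it gives no direction. Endothelial markers were higher in 7 of 18 (median -0.14, 145 to 209 CPM and 108 to 251 CPM) and fibroblast markers in 1 of 3 (median -0.07, 9.91 to 12.8 CPM and 8.63 to 14.3 CPM, with COL1A2 and POSTN at 0). The endothelial median by pair ran from -0.64 in pair 1 to 0.37 in pair 2, and over both groups it was -0.65 without spheres replicate 3 and 0.10 without rods replicate 1.

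Stress and detoxification genes moved little. NRF2 targets were lower in 21 of 29 (median -0.04), with 6 lower (20.7%) and 2 higher (6.90%) at an unadjusted p under 0.05 with the block, against 4.18% and 5.55% of all genes tested. FTH1 was the called member, in the other direction. Among them ME1 gave -0.25 ± 0.08 (adjusted p = 0.293) and AKR1C3 -0.20 ± 0.07 (adjusted p = 0.302). The 29 genes' median was 0.05 without rods replicate 2 and -0.18 without rods replicate 1. Xenobiotic metabolism genes were lower in 13 of 23 (median -0.05). Among those, MGST1, a membrane glutathione transferase, measured 511, 788 and 685 CPM in spheres and 751, 956 and 845 CPM in rods (-0.35 ± 0.07 with the block), at an adjusted p of 0.0539 in edgeR, 0.0237 in DESeq2 and 0.0238 in limma-voom. Metallothionein and zinc transport genes were higher in 8 of 10 (median 0.04), with SLC39A8 called, and p53 targets in 11 of 20 (median 0.02). Unfolded protein response genes were higher in 14 of 25 (median 0.02), cell death and inflammasome genes in 14 of 20 (median 0.03) and heat shock chaperones in 15 of 18 (median 0.12).

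Lysosome and proton pump genes were lower in spheres in 21 of 28 (median -0.06), and in 8 of them every rods library lay above every spheres library, a separation seen in 4.67% of all genes tested. Genes of endocytosis and particle uptake were higher in 14 of 28 (median -0.0021), with none called by edgeR, DESeq2 or limma-voom. Junction genes were higher in 20 of 23 (87.0%, median 0.08), against 50.4% of all genes tested. By CPM within pairs 1, 2 and 3, 17, 6 and 19 of 23 were higher, so pair 2 went the other way (median -0.06). CTNND1, p120 catenin, gave 0.23 ± 0.07 (adjusted p = 0.259). OCLN, occludin, was lower at 40.6, 45.4 and 48.3 CPM against 57.1, 56.3 and 58.8 CPM (-0.33 ± 0.10, adjusted p = 0.267).

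Several other lists had no call in edgeR, and some of them stood slightly higher in spheres. Hypoxia and glycolysis genes were higher in 25 of 29 (median 0.12), and 8 (27.6%) had an unadjusted p under 0.05 with the block, all higher, against 5.55% of all genes tested. Among them CA9, a carbonic anhydrase, measured 7.08, 6.40 and 6.60 CPM against 3.12, 3.45 and 4.20 CPM (0.92 ± 0.30, adjusted p = 0.286). Cholesterol synthesis genes were higher in 20 of 24 (median 0.12, 8 or 33.3% at such a p, all higher), among them MVK, mevalonate kinase (0.48 ± 0.18, adjusted p = 0.362). Complement and acute phase genes were higher in 17 of 24 (median 0.17, 8 or 33.3% at such a p, all higher), among them C1R, a complement protease (0.35 ± 0.07, adjusted p = 0.0527), and CD55, a complement inhibitor of the cell surface (0.55 ± 0.11, adjusted p = 0.135). With the block DESeq2 called both (adjusted p = 0.0485 and 0.000571), and limma-voom called C1R (adjusted p = 0.0276). Fatty acid and lipid droplet genes were higher in 12 of 23 (median 0.05), with ACSL4, an acyl-CoA synthetase, at 0.34 ± 0.07 (adjusted p = 0.0567 in edgeR, 0.0216 in DESeq2 and 0.0135 in limma-voom) and FABP5, a fatty acid carrier, at 0.39 ± 0.13 (adjusted p = 0.304). Immediate early genes were higher in 16 of 21 (median 0.13), matrix and protease genes in 24 of 35 (median 0.05), genes of the EGFR family in 6 of 13 (median -0.01) and antigen presentation genes in 8 of 16 (median -0.0012). With 1 library left out, the median changed sign for the matrix list (-0.16 to 0.21) and also for the p53, cell death, fatty acid, endocytosis, xenobiotic, actin, EGFR, antigen presentation, alveolar epithelial, dendritic cell and fibroblast lists.

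The same shapes were also compared at 500 in the apical layer and at 1000 in the basolateral layer. At 500 edgeR with group only called 0 of 14050 genes (0%, 720 or 5.12% at an unadjusted p under 0.05), and basolaterally 0 of 13034 (0%, 96 or 0.737%). Basolateral spheres 1000 replicate 2 had 2751299 counts, the fewest of the 41 libraries, and 3 counts came to 1.09 CPM there. The apical 500 groups were not matched by number: KIT measured 850, 453 and 459 CPM in spheres 500 and 894, 138 and 103 CPM in rods 500, so shape and that split cannot be told apart there. A test of the difference between the shape effects at 1000 and at 500 called 0 of 14749 genes in edgeR (0%, 607 or 4.12% at an unadjusted p under 0.05, and 3 in DESeq2). That between the apical and basolateral effects called 0 of 14705 (0%, 323 or 2.2%, and 4 in DESeq2).

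With group only, GAS5 differed between shapes by 0.13 ± 0.48 at 500 and by 0.31 ± 0.82 basolaterally, next to 1.19 ± 0.28 at apical 1000, and SNHG1 by 0.19 ± 0.45 and 0.23 ± 0.77. MT-ATP8 gave -0.02 ± 0.14 and 0.26 ± 0.53; its apical difference exceeded that at 500 by 0.84 ± 0.21 at an unadjusted p of 0.0014 that did not pass adjustment. TMSB10 gave 0.01 ± 0.13 and 0.01 ± 0.31. The interferon list had a median of -0.69 at 500, with 1 of 43 members higher in spheres, and 0.29 basolaterally, with 37 of 42 higher. The NF-kB list had medians of -0.71 and -0.06, and mitochondrial genes -0.05 and 0.18.

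**Figure D5:**
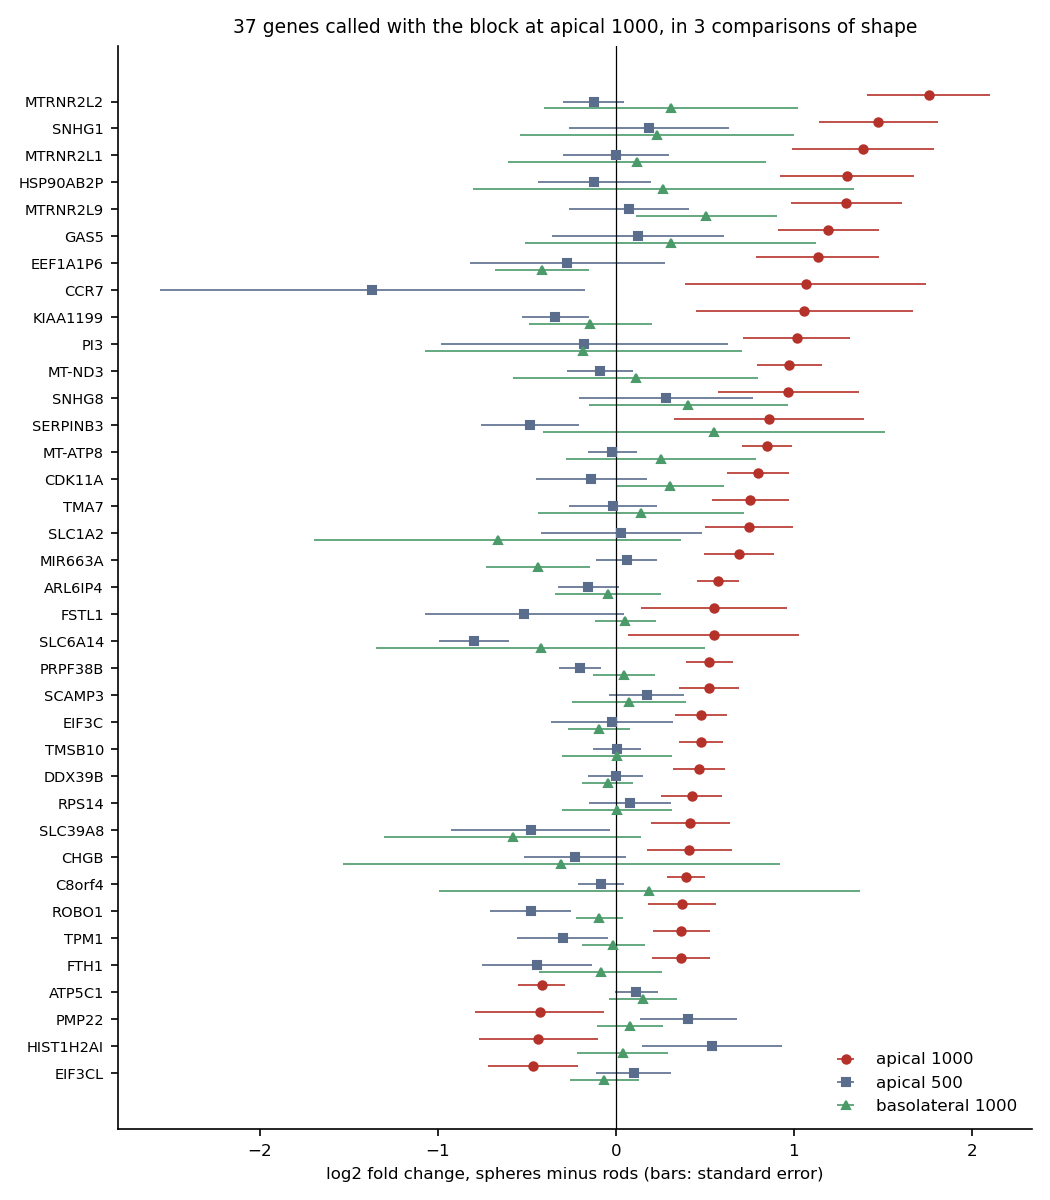
Log2 fold change of spheres over rods with group only (horizontal, bars are standard errors) for the 37 described genes that were called with the block at apical 1000, there (red circles), at apical 500 (blue squares) and basolaterally at 1000 (green triangles); CCR7 was not tested basolaterally. The red points were chosen for their difference and lie away from 0, GAS5 at 1.19, while its other points lie at 0.13 and 0.31.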

How the data were processed

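Per the labels' protocols, total RNA (1 µg a library) was purified with QIAGEN reagents and prepared with the SMARTer Stranded kit for mammalian RNA. The deposited values are whole-number counts of reads for each gene, which the authors left unnormalized. The submitters' processing notes name GRCh38.p13. Aligner, counter, strand setting and annotation: not given in the sources used here, so reads of overlapping or antisense genes may be mixed. The table held 57773 genes. Of 772 genes in 33 lists 766 were found, 29 under an older symbol by identifier; SNHG4, 4 histone genes and PECAM1 were not. Positions come from GENCODE 29 and promoter windows from RefSeq (GRCh38.p14).

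edgeR 4.0.16 in R 4.3.3 (robust quasi-likelihood F test, TMM scaling, filterByExpr) was fitted on the 6 libraries with group as its single term. A gene was called where the p adjusted by Benjamini-Hochberg over all genes tested was under 0.05. Values "with the block" come from a second fit with the replicate number added. Both groups carry the same numbers in the labels, and deviations from the group mean correlated across genes at 0.396, 0.280 and 0.553 between libraries of the same number and at -0.445 to 0.0526 between different numbers, so blocked values are printed where they change a call. DESeq2 1.42.0, limma-voom (limma 3.58.1), other scalings and filters and left-out libraries were tried as well. List sums were compared by two-sided exact permutation tests, whose smallest p is 0.1 for 3 against 3. The median standard error was 0.204 with group only and 0.149 with the block. The fits were tested on simulated data. Floors of 3 counts cover counting error only.

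For each of the 2 fits the rule for named genes took, by p, up to 10 called genes in each direction whose groups did not overlap at an average log2 CPM of at least 1, filled to 5 in each direction from the smallest p. From every list the 3 members with the smallest blocked p followed, and from marker lists also the 3 most abundant. MT-ND6, MTRNR2L8, MTRNR2L12 and the called genes outside this rule were named after their values were seen. Members and lists were chosen with earlier results of these data known. Some items, 1 of the called genes among them, are not reported here.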

Additional observations from a re-analysis of the deposited data

Results flagged for a closer look

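EEF1A1P6, a processed pseudogene of a translation elongation factor that lies within STEAP1B, stood out because every apical spheres 1000 library lay above every rods 1000 library (18.4, 12.4 and 11.04 against 9.73, 4.47 and 5.20 CPM), while the basolateral libraries separated the other way (log2 fold change -0.41 ± 0.26). The apical difference exceeded the basolateral one by 1.55 on the log2 scale, at an unadjusted p of 0.0045 in edgeR that did not pass adjustment over all genes (adjusted p = 1). Of its 30-base words 84.1% also stand in EEF1A1, so the source of its reads is uncertain. The basolateral spheres libraries include the library with the fewest counts of the series.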

How the results depend on the processing

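The count of calls for spheres against rods at apical 1000 was 0 with TMM, RLE or upper quartile scaling, a filter of 1 CPM in 3 libraries, limma-voom and all apical groups in 1 fit. It was 4 without a filter on low counts, 21 in DESeq2, and 0 to 1 with a library left out (1 without rods replicate 2). With the replicate block it was 42, 51 in DESeq2, 59 in limma-voom and 8 with the controls added, and leaving out pair 1, 2 or 3 under the block gave 151, 15 and 177. The test of 1000 against 500 gave 0 calls, also under the block and RLE, 1 without a filter, 3 in DESeq2 and 0 to 1 with a library left out. By KIT the 500 groups were not matched by number, so the count under the block is no separate support there. The apical against basolateral test gave 0, also under the block and RLE, 1 without a filter, 4 in DESeq2 and 0 to 1 with a library left out. Why these counts differ was not tested. Values for single genes and list medians were compared only over the edgeR settings of spheres against rods at apical 1000, and not in DESeq2 or limma-voom. MTRNR2L8 and MTRNR2L12 were not among these genes. Of the single-gene values, 144 gained a call and 992 kept their direction and side of the threshold. Of the list medians, 21 moved by more than the spread between replicates and 507 did not.

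Limits: in simulated counts, group only recovered few of the genes changed 1.5-fold, so a gene without a call may still differ. The blocked calls rest on the pairing by number. Most of them were lost without replicate 2, while their fold changes stayed close, and the simulated data gave false calls under the block. Counts of 3 or fewer are at the floor.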
